A study of Mus musculus with 6 samples.

Results

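The miR-99/100 and miR-125 families were followed at postnatal day 3 in neural stem cells, which divide to give neurons and glia, from the hippocampus of male C57BL/6J pups. All 10 mature miRNAs chosen by name were present among the 1522 rows of the table, 6 of the miR-99/100 family and 4 of the miR-125 family. In the exposed group, called GDE here and IUGR in the library titles, the dams had received DEX (dexamethasone, a synthetic glucocorticoid) into the peritoneum at 1 mg/kg, daily over embryonic days E14.5 to E18.5. In the Control group, titled Normal, the dams had received normal saline on the same days. Each group had 3 libraries, stated to come from independent litters, so the p-values below measure the spread between litters. The pups of both groups were of the same strain, and the cells were obtained from enzymatically dissociated tissue. In such bulk libraries, fewer cells of a type and less RNA per cell cannot be told apart.

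Levels are given as RPM, tags of a miRNA scaled to a common library size. From the steps of the low values the depth was about 11751000 to 12385000 tags per library. The rows of the table summed to 24.1% to 27.8% of it. Of the 1522 rows 179 carried the same values as another row, so this sum can hold tags more than once. Among the 10 members 0 did. In limma, described below, 0 members of each marker list passed, beside 0.308% of all 649 tested miRNAs. miR-9-5p and miR-9-3p, typical of neural progenitors, summed to 15328 to 17058 RPM in GDE and 15719 to 16712 RPM in Control. Marker miRNAs of other cell types were also measured. The 5 microglia and leukocyte markers summed to 409.1 to 572.5 RPM in GDE and 222.5 to 369.7 RPM in Control. The 3 erythroid markers summed to 73.8 to 93.5 against 34.975 to 69.0 RPM, and both sums were without overlap. Within the lists the markers differed, and of all tested miRNAs 14.6% were without overlap between the groups. miR-223-3p, miR-142a-3p and miR-150-5p were higher in GDE without overlap, whereas miR-142a-5p and miR-155-5p overlapped. In Control replicate 1 miR-142a-3p was at only 0.249 RPM, or 3 tags. On average miR-155-5p was lower in GDE (90.6 against 108.2 RPM). Of the erythroid list miR-451a was higher without overlap, whereas miR-144-3p and miR-486a-5p overlapped. The sums of the neuron, oligodendrocyte lineage, endothelial and mural, and choroid plexus and ependymal lists overlapped between the groups. Of the endothelial and mural list, miR-126a-5p and miR-145a-5p were higher in GDE without overlap. Of the choroid plexus and ependymal list, miR-34b-3p was lower in GDE without overlap. The other markers of these lists overlapped, and no defining marker was at 0 in all libraries.

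A miRNA is cut from a hairpin precursor that can yield a mature strand from its 5′ side (5p) and its 3′ side (3p). Usually one of them, the guide, is kept in an Argonaute protein and pairs with messenger RNAs through its seed, bases 2 to 8. miR-125 is the mammalian relative of worm lin-4 and represses Lin28, a block on let-7 maturation. It promotes neuronal differentiation. miR-99 and miR-100 are known to repress mTOR, a kinase that drives growth. In vertebrate genomes members of both families sit beside a let-7 gene in shared primary transcripts, an arrangement of ancient origin.

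The 5p arms fall into 2 seed groups. They are shown first because the seed decides which messages are paired, and because the similarity of the rest of the sequence bears on how tags can be assigned. Sequences are from RefSeq (GRCm38.p6), which held all 10 members, and capitals mark the seed.
mmu-miR-99a-5p: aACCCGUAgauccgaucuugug
mmu-miR-99b-5p: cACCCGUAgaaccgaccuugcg
mmu-miR-100-5p: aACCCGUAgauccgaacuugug
mmu-miR-125a-5p: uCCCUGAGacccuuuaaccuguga
mmu-miR-125b-5p: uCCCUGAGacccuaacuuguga
mmu-miR-351-5p: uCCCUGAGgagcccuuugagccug

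The first 3 carry the seed ACCCGUA, and no other matched row of the table did. miR-99a-5p and miR-100-5p differed at 1 base, U16A, counted from the 5′ end with the base of miR-99a first. miR-99b-5p differed from miR-99a-5p at 4 bases (A1C, U11A, U16C and U21C). The other 3 carry CCCUGAG. miR-125a-5p and miR-125b-5p shared their first 13 bases. miR-351-5p, which is not a member, shared 8 bases with them from the 5′ end.

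The 3p arms were less alike. miR-99a-3p and miR-99b-3p had 1 seed in common, and every other 3p member had a seed of its own in the table. The second miR-125b locus adds miR-125b-2-3p, which was not among the 10 members and is given here because it separates the loci.
mmu-miR-99a-3p: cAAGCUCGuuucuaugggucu
mmu-miR-99b-3p: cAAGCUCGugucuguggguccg
mmu-miR-100-3p: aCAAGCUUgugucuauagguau
mmu-miR-125a-3p: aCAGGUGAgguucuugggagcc
mmu-miR-125b-1-3p: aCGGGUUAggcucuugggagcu
mmu-miR-125b-2-3p: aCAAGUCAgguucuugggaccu

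miR-125b-1-3p and miR-125b-2-3p differed at 5 bases (G3A, G4A, U7C, C11U and G20C), so their tags can be told apart. miR-125b-5p cannot be, as the loci make the same sequence.

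The members come from 3 host transcripts, all on the plus strand (GENCODE M21, GRCm38). On chromosome 16, Mir99a (77598936 to 77599000) and Mir125b-2 (77646273 to 77646343) lie in introns of all 4 Mir99ahg transcripts that span them, with Mirlet7c-1 between them. On chromosome 17, Mir99b (17830188 to 17830257) and Mir125a (17830812 to 17830879) enclose Mirlet7e within Spaca6, a protein-coding gene. Mir99b is intronic in both transcripts that span it, and Mir125a is intronic in 2 and exonic in 1. On chromosome 9, Mir100 (41531425 to 41531504) and Mir125b-1 (41581926 to 41582002) enclose Mirlet7a-2 within introns of the non-coding 3110039I08Rik, which RefSeq lists under Mir100hg. The Spaca6 cluster is the compact one, with gaps of 94 and 367 bases between its precursors, while Mir125b-1 and Mir125b-2 stand 45114 and 46522 bases beyond their let-7 neighbours.

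No member was called between GDE and Control. In limma 0 of 10 had an adjusted p under 0.05 over all 649 tested miRNAs, of which 0.308% passed (2 miRNAs). At an unadjusted p under 0.05 there were also 0 of 10 members, against 8.63% of all tested miRNAs. On whole tags recovered from the values, edgeR called 0 members (0.308% of all) and DESeq2 called 0 members (1.25% of the 560 it gave an adjusted p). For 0 of 10 members the groups did not overlap, against 14.6% of all tested miRNAs. All 10 had passed the filter on low values, which asked for 1 RPM or more in 3 libraries. Their median log2 fold was -0.10, beside -0.07 over all tested miRNAs. Of the members 9 had a negative and 1 a positive fold, beside 397 negative and 252 positive folds over all tested miRNAs. Log2 folds are GDE minus Control on log2(RPM + 1).

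**Figure D1:**
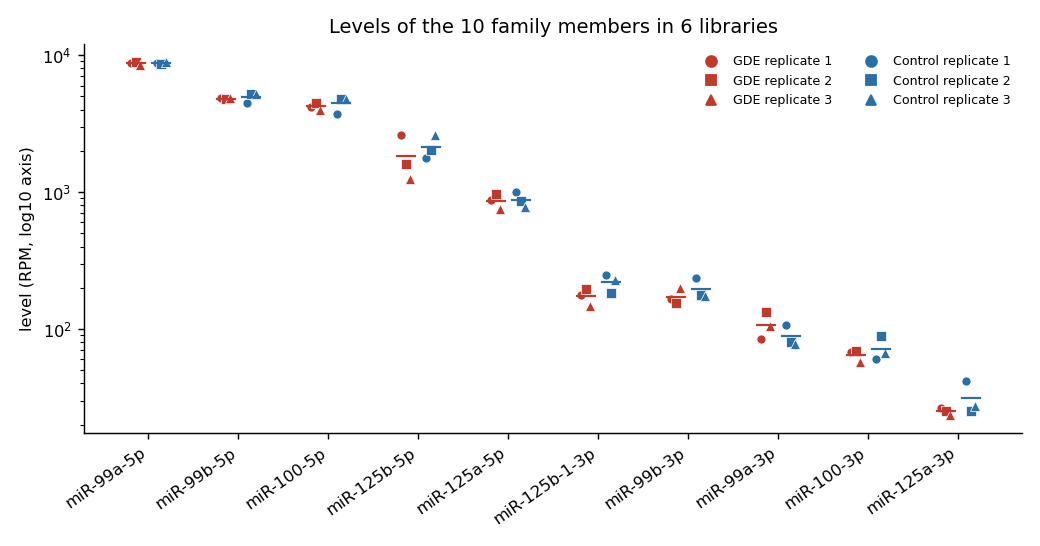
Level of each member in each of the 6 libraries (RPM, log10 axis), ordered by the mean over all libraries; points are libraries, and short lines are group means. The groups overlap for every member, from miR-99a-5p at 8540 to 8978 RPM down to miR-125a-3p at 23.6 to 42.0 RPM.

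The guide strands of the miR-99/100 family were the most abundant members. miR-99a-5p ranked 3rd of all rows by mean level, miR-99b-5p 19th and miR-100-5p 21st. miR-99a-5p was at 8766, 8852 and 8540 RPM in GDE replicates 1, 2 and 3 and at 8737, 8601 and 8978 RPM in the Control replicates. The highest library was only 1.05 times the lowest. Its log2 fold was -0.01 (SE 0.05; limma, adjusted p = 0.989), with a 95% interval of 0.920 to 1.07 for the ratio of GDE to Control. For miR-99b-5p the GDE libraries held 4839, 4809 and 4835 RPM and the Control libraries 4479, 5235 and 5209 RPM. The GDE libraries lay between the lowest and the highest Control library (log2 fold -0.04, SE 0.08; limma, adjusted p = 0.922; ratio interval 0.859 to 1.10).

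miR-100-5p, a base apart from miR-99a-5p, stood at a lower level. How tags that match both were counted is not stated, so the split between these miRNAs is uncertain. GDE libraries had 4211, 4489 and 3968 RPM and Control libraries 3704, 4828 and 4801 RPM. Control replicate 1 was the lowest library for this miRNA as for miR-99b-5p, and the other Control libraries were the highest for both. The log2 fold was -0.06 (SE 0.11; limma, adjusted p = 0.906; ratio interval 0.796 to 1.15). Summed, the 3 arms with the seed ACCCGUA came to 17770 ± 405 RPM in GDE and 18191 ± 1113 RPM in Control (mean ± SD, n = 3 each), which is 6.09% to 7.36% of all RPM in the table. With rescaling to equal table totals the direction of this difference turned, from -421.2 to 276 RPM. miR-99a-5p made up 46.1% to 51.6% of that sum.

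The guide strands of the miR-125 family were lower and, for miR-125b-5p, far more variable. miR-125b-5p was at 2629, 1606 and 1253 RPM in GDE and, in Control, at 1782, 2023 and 2606 RPM. GDE held both its highest and its lowest library, 2.10-fold apart. The means were 1829 ± 715 and 2137 ± 424 RPM. The log2 fold was -0.28 (SE 0.26; limma, adjusted p = 0.774), and a ratio of GDE to Control between 0.541 and 1.26 was within the 95% interval. Without GDE replicate 3 the log2 fold was -0.04, and without GDE replicate 1 it was -0.57.

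miR-125a-5p, from the Spaca6 cluster, had 878.9, 964.1 and 746.4 RPM in GDE against 1000, 858.9 and 778.3 RPM in Control. The groups covered nearly the same range (log2 fold -0.03, SE 0.15; limma, adjusted p = 0.989; ratio interval 0.769 to 1.25). miR-351-5p, the third carrier of this seed, had 189.1 ± 60.4 RPM in GDE against 167.5 ± 16.6 RPM in Control (log2 fold 0.13; limma, adjusted p = 0.931). It supplied 3.49% to 11.02% of the RPM with the seed CCCUGAG, and miR-125b-5p 55.8% to 73.8%. The direction of the 5p folds near 0 depended on scaling. For miR-99a-5p, miR-99b-5p, miR-100-5p and miR-125a-5p the fold was positive with TMM scaling, at 0.09, 0.06, 0.04 and 0.08.

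**Figure D2:**
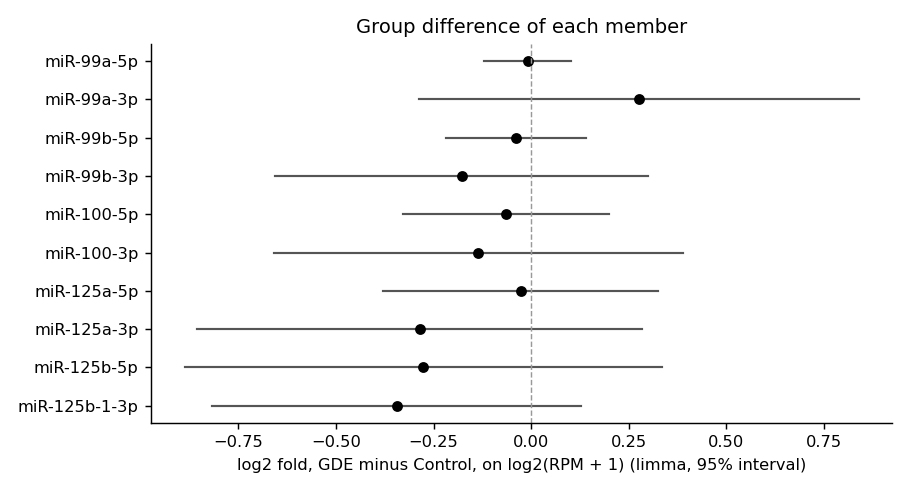
Log2 fold of GDE over Control for each member on log2(RPM + 1), with the 95% interval from limma (3 libraries per group). Every interval includes 0, and the intervals widen from miR-99a-5p (-0.12 to 0.10) to miR-125b-5p (-0.89 to 0.34).

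The passenger strands, the less abundant 3p arms, had wider intervals than the guide strands other than miR-125b-5p, whose interval was the widest of the 10 members. miR-125b-1-3p had the lowest unadjusted p of the 10 members (0.13). It was at 176.4, 196.6 and 147.1 RPM in GDE and, in Control, at 248.3, 183.7 and 229.5 RPM. Control replicate 2 lay below GDE replicate 2, so the groups overlapped (log2 fold -0.34, SE 0.20; limma, adjusted p = 0.618). miR-99a-3p had the positive fold, which ranged from 0.12 without GDE replicate 2 to 0.43 without GDE replicate 1. Its GDE libraries held 85.0, 132.2 and 106.0 RPM and its Control libraries 106.5, 80.5 and 77.7 RPM, with overlap (log2 fold 0.28, SE 0.24; limma, adjusted p = 0.733).

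miR-125a-3p, the least abundant member, was at 26.5, 25.2 and 23.6 RPM in GDE and, in Control, at 42.0, 25.4 and 27.4 RPM. Control replicate 1 stood above the other 5 libraries, and without it the log2 fold moved from -0.29 to -0.07 (limma, adjusted p = 0.723 with all libraries). miR-99b-3p showed the same library on top, with 164.3, 154.9 and 197.7 RPM in GDE against 237.6, 175.9 and 174.5 RPM in the Control libraries (log2 fold -0.18, SE 0.21; limma, adjusted p = 0.818). Without Control replicate 1 this fold was -0.03. miR-100-3p was at 67.9, 69.4 and 57.1 RPM in GDE against 60.8, 88.6 and 66.5 RPM in the Control libraries (log2 fold -0.14, SE 0.23; limma, adjusted p = 0.901). GDE replicate 3 was the lowest library for 6 of the 10 members and Control replicate 1 the highest for 4. These libraries also had the smallest and the largest sum of RPM in the table, 241370 and 277888.

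In order of mean level the members ran miR-99a-5p, miR-99b-5p, miR-100-5p, miR-125b-5p, miR-125a-5p, miR-125b-1-3p, miR-99b-3p, miR-99a-3p, miR-100-3p and miR-125a-3p. Most neighbours in this order were apart in every library. 3 pairs had overlapping ranges. miR-99b-5p exceeded miR-100-5p 1.13-fold on average and in 6 of 6 libraries. miR-125b-1-3p exceeded miR-99b-3p 1.07-fold and in 5 of 6 libraries, and miR-99a-3p exceeded miR-100-3p 1.43-fold and in 5 of 6. Each mature strand is covered by a single tag, so levels were compared without a correction for length. Whether the libraries captured different strands equally well was not tested, so comparisons between miRNAs are of RPM only.

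The spread between replicates depended strongly on the level. miR-99a-5p varied within groups with an SD of 0.03 in log2(RPM + 1). Its recovered tags lay between 103564 and 106527, with a variance over mean of 9.18, against 241.0 for miR-99b-5p, 591.2 for miR-100-5p and 1766 for miR-125b-5p. The 18 tested miRNAs above 5000 RPM had a median within-group SD of 0.05, and the 34 between 1000 and 5000 RPM one of 0.19. miR-99b-5p (0.09) and miR-100-5p (0.17) lay below that of their class and miR-125b-5p (0.43) above it. Whether the counting was limited at the top of the range was not tested, and the close levels of miR-99a-5p are not a measure of equality between GDE and Control.

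**Figure D3:**
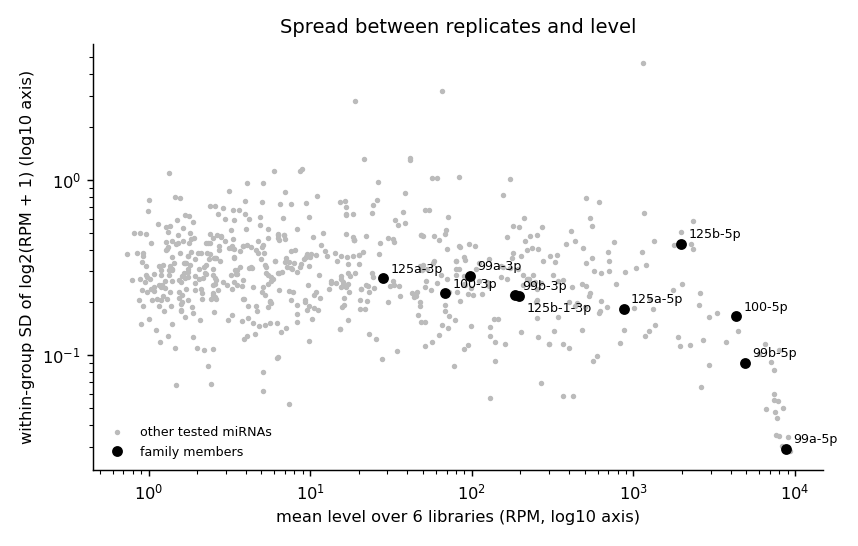
Within-group SD of log2(RPM + 1) against mean level for the 649 tested miRNAs (both axes log10), with the members as black points. The SD falls steeply above 5000 RPM, where miR-99a-5p lies at 0.03, while miR-125b-5p lies at 0.43 at a mean of 1983 RPM.

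The ratio of the strands of a precursor cancels the scaling of a library. It would not cancel a limit on counting at the top of the range, which was not tested. This concerns miR-99a-5p most, and where such a limit would begin is not known. The hairpin of Mir99a shows the arrangement, with the mature strands in capitals and the 5p arm first.
Mir99a: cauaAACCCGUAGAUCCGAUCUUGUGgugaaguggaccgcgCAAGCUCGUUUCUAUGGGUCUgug
Mir125a: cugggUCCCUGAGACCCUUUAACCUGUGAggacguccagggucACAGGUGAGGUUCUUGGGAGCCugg

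In RPM the 5p arm exceeded the 3p arm in every library for all 6 precursors. miR-99a-5p was 67.0 to 115.6 times as abundant as miR-99a-3p, and miR-100-5p 54.5 to 72.2 times as abundant as miR-100-3p. In the Spaca6 cluster the ratio was lower, at 18.9 to 31.0 for Mir99b and 23.8 to 38.2 for Mir125a. miR-125b-5p was 7.18 to 14.9 times as abundant as miR-125b-1-3p and 16.7 to 33.4 times as abundant as miR-125b-2-3p. These 2 ratios are not true arm ratios, since the loci share the 5p tags.

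No member precursor was called for its arm ratio. In limma 0 of the 6 member precursors passed, beside 0% of the 151 precursors with both arms past the filter. At an unadjusted p under 0.05 there were 0 of 6, against 8.61% of all, and for 0 of 6 the groups did not overlap, against 11.3% of all. The log2 ratio of 5p over 3p, GDE minus Control, was -0.29 for Mir99a (SE 0.24; limma, adjusted p = 0.691), and 0.26 for Mir125a (SE 0.21; limma, adjusted p = 0.691). Leaving out 1 library gave -0.45 to -0.14 and 0.14 to 0.38. Control replicate 1 had the lowest ratio for Mir99b, Mir125a and Mir125b-1, with 18.9, 23.8 and 7.18.

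**Figure D4:**
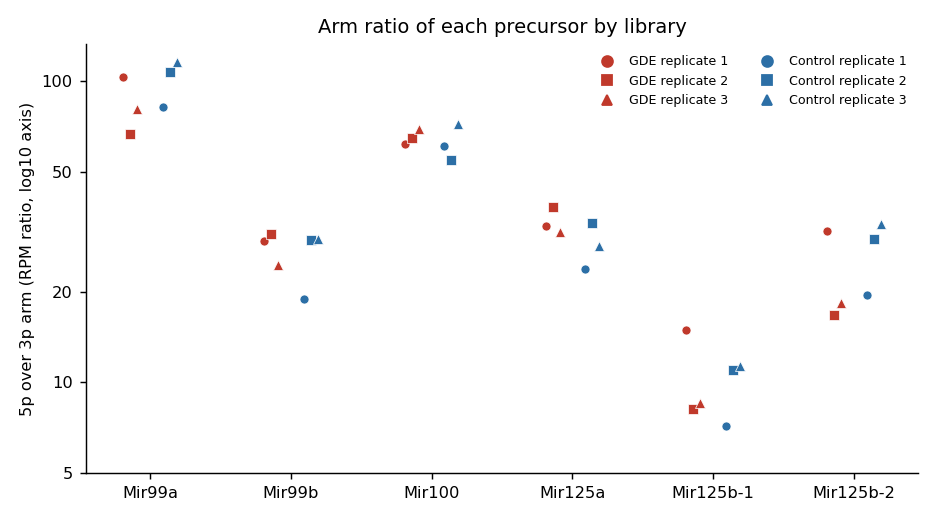
Ratio of the 5p to the 3p arm in RPM (log10 axis) for each precursor, 1 point per library. All ratios are above 7, the groups overlap for each precursor, and miR-125b-5p serves as 5p arm for both Mir125b-1 and Mir125b-2.

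Ratios between members within a library also cancel its scaling, with the same reservation, which concerns miR-99a-5p most. In total 7 were computed, the last of them added after the values had been seen. miR-99a-5p was 1.77 to 1.84 times miR-99b-5p in GDE and 1.64 to 1.95 times in Control. Relative to miR-100-5p it was 1.97 to 2.15 and 1.78 to 2.36 times as abundant. The GDE libraries lay within the range of the Control libraries for both. miR-125b-5p over miR-125a-5p varied much more, from 1.67 to 2.99 in GDE and from 1.78 to 3.35 in Control. miR-125a-5p over its cluster neighbour miR-99b-5p ran from 0.154 to 0.200 in GDE and from 0.149 to 0.223 in Control. For the first 6 ratios, which also set miR-125b-2-3p against miR-99a-3p and miR-125b-1-3p against miR-100-5p, the groups overlapped, and exact two-sided permutation tests gave p between 0.3 and 1.0 (adjusted over 7 ratios 0.875 to 1.0).

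The ratio of miR-125b-1-3p to miR-125b-2-3p was the one that did not overlap. It was 2.13, 2.05 and 2.15 in GDE and 2.72, 2.72 and 2.94 in Control. All GDE libraries lay below all Control libraries, and the groups were tight. On the log2 scale the mean was 1.07 ± 0.04 in GDE and 1.47 ± 0.07 in Control (SD, n = 3 each), a difference of -0.40. The exact two-sided permutation p was 0.1 (adjusted over the 7 ratios 0.7), the smallest that 3 against 3 libraries can give. This ratio was picked out after its values were seen. Of all 210276 ratios between tested miRNAs, 15.3% were without overlap between the groups, so the absence of overlap by itself is common here. Neither arm alone passed the test, with miR-125b-2-3p at 82.5 ± 13.9 RPM in GDE and, in Control, at 78.9 ± 12.0 RPM (log2 fold 0.06; limma, adjusted p = 0.984).

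As a share, miR-125b-1-3p supplied 68.0%, 67.2% and 68.3% of the tags of both 3p arms in GDE and 73.1%, 73.2% and 74.6% in Control. This share restates the ratio above, which was picked after its values were seen, and is not further evidence. Each library held 2613 to 4087 such tags. The highest upper limit in GDE was 70.0% and the lowest lower limit in Control 71.6%. These 95% Wilson intervals cover counting error only and not the spread between litters. Other pairs that set the chromosome 9 against the chromosome 16 cluster did not separate the groups. miR-100-5p made up 31.7% to 33.6% of miR-100-5p and miR-99a-5p together in GDE and 29.8% to 36.0% in Control. For the 3p arms of the same precursors the shares of miR-100-3p were 34.4% to 44.4% and 36.4% to 52.4%. let-7a-2-3p made up 8.35% to 8.81% of its sum with let-7c-1-3p in GDE and 6.54% to 9.07% in Control. The microglia and leukocyte and the erythroid marker sums given above also differed without overlap between these libraries, though not every marker in them did. Their part in the miR-125b ratio was not tested.

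**Figure D5:**
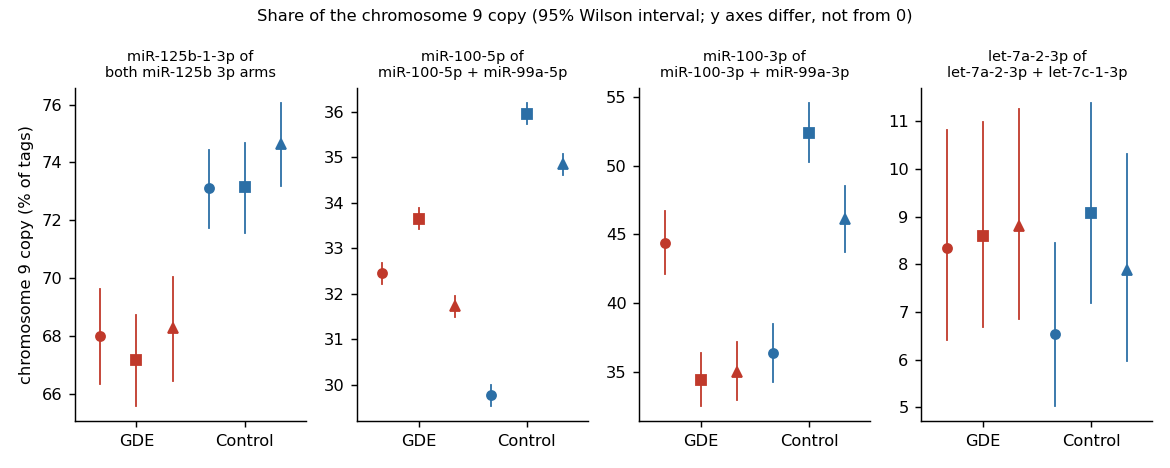
Share of the copy from the chromosome 9 cluster in the tags of a pair from the chromosome 9 and chromosome 16 clusters, by library, with 95% Wilson intervals; the y axes differ and do not start at 0. For the miR-125b 3p arms GDE libraries sit at 67.2% to 68.3% and Control libraries at 73.1% to 74.6%, while the other 3 pairs overlap. The miR-125b 3p pair was picked after its values were seen.

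By host cluster, member arms other than miR-125b-5p summed to 8827 ± 171 RPM in GDE and 8860 ± 187 RPM in Control for Mir99ahg. For Spaca6 the sums were 5888 ± 77.1 and 6081 ± 284 RPM, and for 3110039I08Rik 4461 ± 291 and 4737 ± 627 RPM. The groups overlapped for each cluster, and the Mir99ahg and Spaca6 differences turned positive with equal table totals. miR-125b-2-3p and the let-7 neighbours were read beside them, of which let-7a-5p and let-7c-5p are also made at other loci. None of these 7 passed in limma (lowest adjusted p = 0.570), and 0 had an unadjusted p under 0.05. That lowest value belonged to let-7e-5p, between Mir99b and Mir125a, at 2506, 2278 and 1233 RPM in GDE and 2998, 2502 and 2575 RPM in Control. GDE replicate 3 again lay far below the rest, and without it the log2 fold of let-7e-5p went from -0.49 to -0.17.

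Likeness of pattern was taken as Pearson's r of log2(RPM + 1) over the 6 libraries, among 319 other named miRNAs of at least 10 RPM on average, and is a description of libraries that share their scaling and depth. The closest to miR-99b-5p was miR-100-5p of another chromosome (r = 0.92), and the reverse held too. After it came miR-411-5p (0.83) and miR-434-3p (0.79) for miR-99b-5p, and miR-129-5p (0.76) and miR-411-5p (0.76) for miR-100-5p. miR-99a-5p was most like miR-22-5p (0.99), let-7c-5p (0.97), which is made both in its cluster and at Mirlet7c-2 on chromosome 15, and miR-29c-3p (0.94). For miR-125a-5p they were miR-181c-5p (0.97), miR-425-3p (0.93) and miR-484 (0.92), and for miR-125b-5p they were miR-30c-5p (0.94), miR-148b-3p (0.93) and miR-365-3p (0.91). The 2 miR-125 guide strands were not among the 3 closest of each other.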

How the data were processed

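The table deposited by the authors holds 6 columns called expression, 1 per library, which were read as RPM from the values. Per the submitters' processing notes, Bowtie2 and the mm10 build were used; for trimming, tags that match several miRNAs and molecular identifiers, nothing is stated in the sources used. In each column 100.0% of nonzero values were whole multiples of 1 step within 0.1 tags, which gave the depth and whole tags. Per the labels' protocols, an MGIEasy kit for small RNA was used.

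limma 3.58.1 (R 4.3.3) with a trend was fitted on log2(RPM + 1) of the 649 miRNAs that reached 1 RPM in 3 libraries, two-sided, with Benjamini-Hochberg adjustment over all of them and a threshold of 0.05. Arm ratios were fitted in limma over 151 precursors that RefSeq pairs with both arms; RefSeq matched 960 of 1147 named rows. Single ratios were tested by exact permutation (scipy 1.17.1). edgeR 4.0.16 (quasi-likelihood) and DESeq2 1.42.0 were run on recovered tags. The fits were tested on simulated data. Other alternatives were the pseudocount (0.1 and 10), the filter, the scaling, a block for the replicate number and dropping each library in turn. The members, lists and tests were chosen with earlier results of these data known. Named were the 10 members, their cluster neighbours, miRNAs sharing a 5p seed and, per 5p arm, the 3 most alike in pattern.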

Additional observations from a re-analysis of the deposited data

How the results depend on the processing

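The number of members past the threshold was 0 under every alternative, and so was the number of member precursors with a changed arm ratio. Over all miRNAs 2 were called, 1 with a filter of 10 RPM, 7 in DESeq2 and 2 to 3 when a library was left out. Folds near 0 changed sign. With rescaling to equal table totals the log2 fold was 0.051 for miR-99a-5p, 0.02 for miR-99b-5p and 0.033 for miR-125a-5p. TMM scaling gave 0.094, 0.063 and 0.076 for these and 0.037 for miR-100-5p, edgeR 0.089, 0.049, 0.078 and 0.01, and DESeq2 0.083, 0.042, 0.072 and 0.004. These scalings moved the median fold of all miRNAs by 0.054 (equal totals) and 0.093 (TMM). Leaving out 1 library gave ranges of -0.023 to 0.008 for miR-99a-5p, -0.191 to 1.8e-05 for miR-100-5p, -0.245 to 0.022 for miR-100-3p, -0.11 to 0.074 for miR-125a-5p, -0.055 to 0.187 for miR-125b-2-3p and -0.093 to 0.386 for miR-351-5p. For miR-99a-3p the range was 0.119 to 0.434. For arm ratios they were -0.447 to -0.138 (Mir99a), 0.139 to 0.382 (Mir125a), -0.621 to -0.161 (Mir125b-2), -0.081 to 0.249 (Mir99b), -0.022 to 0.179 (Mir100) and -0.211 to 0.222 (Mir125b-1). For log2 ratios they were -0.022 to 0.102 (miR-99a-5p over miR-99b-5p), -0.023 to 0.18 (over miR-100-5p) and -0.106 to 0.183 (miR-125a-5p over miR-99b-5p). The log2 ratio of miR-125b-1-3p over miR-125b-2-3p gave -0.423 to -0.367. That ratio was picked after its values were seen, with no overlap between the groups. Leaving out 1 library could therefore not turn its direction, so its range is not a measure of stability. Summed levels, GDE minus Control, moved to 327.2 RPM for Mir99ahg and 42.1 RPM for Spaca6 with equal totals, and the sums of the miR-99/100 5p arms and of all 10 members turned from -421.2 to 276 and from -809.5 to 10.6 RPM. Leaving out 1 library gave -122.3 to 64.6 RPM for Mir99ahg. For the sum of miR-125a-5p and miR-125b-5p, -323.3 RPM with all libraries, it gave -731.1 to 23.1 RPM. The cause of these changes was not tested. With a replicate block 0 members and 2 miRNAs in all were called. Same-numbered libraries did not deviate together (r = -0.03, -0.12 and -0.03 over miRNAs), and no GDE library correlated best with its own number. Deviations from the means of 3 libraries cannot settle whether the numbers pair libraries, and the labels do not tie litters of the groups together. Of the 10 members' 150 alternative folds, 129 kept their direction and side of the threshold and 21 changed sign. A change of the filter or a replicate block cannot move a fold in this balanced design. For those settings the direction was fixed in advance, so the 129 are not a measure of stability. Precision is limited by 3 libraries per group. For miR-99a-5p the spread at the top of the range was narrow, and whether counting was limited there was not tested.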
